A study of Danio rerio with 6 samples.

Results

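The genes described here are 9 genes of DNA replication and of entry into S phase, the stage of the cell cycle in which DNA is copied. They are mcm2, mcm3, mcm5, mcm7, cdc6, ccne1, e2f7, pcna and pold1. They were chosen by gene symbol, and every member was found among the 10067 genes named in the deposited peak lists. Of the members, 5 (mcm2, mcm3, mcm5, mcm7 and cdc6) act in licensing itself, and the others act at the fork or in cell cycle control.

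Before S phase, the origin recognition complex and cdc6 load the MCM helicase, a ring of different MCM subunits, onto DNA at replication origins, and this loading is called licensing. Cyclin E with its kinase then promotes the start of S phase, and the sliding clamp pcna holds DNA polymerases such as pold1 at the moving fork. Many of these genes are targets of E2F transcription factors in vertebrates, and zebrafish heart muscle cells re-enter the cell cycle after injury.

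In heart tissue of zebrafish, ChIP-seq was run for 2 modifications of histone H3. In this assay chromatin is precipitated with an antibody and its DNA is sequenced. H3K9ac, acetylation of lysine 9, is a mark of active promoters, and H3K9me3, trimethylation of the same lysine, is best known from silent chromatin. The groups were uncut hearts, hearts at 6 days post amputation (dpa) of the tip of the ventricle, and hearts at 9 dpa, all from fish 1 to 1.5 years old. The labels name no strain, transgene or drug, and do not say how many hearts were pooled. Each mark and time had 1 library, 6 in all, so no difference below has a replicate check or a p-value of its own, and each compares libraries rather than conditions.

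The number of H3K9ac peaks was 16264 for the uncut library, 17525 for 6 dpa and 17223 for 9 dpa, and 1902151 to 2206341 tags (reads) lay inside peaks. The total reads of each library are unknown. The read density against which peaks of a library were most often scored was taken here as its background. It was 14.63 reads per kb in uncut, 11.25 at 6 dpa and 15.01 at 9 dpa. Tags per kb in peaks stood 5.03 times above that background in uncut, 6.48 times at 6 dpa and 5.16 times at 9 dpa. The 6 dpa library therefore had the lowest background and the highest contrast of the H3K9ac libraries. In whole heart tissue, fewer cells that carry a mark and less mark per cell cannot be told apart.

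Of the 9 promoters, H3K9ac peaks marked 3 in the uncut library, 8 at 6 dpa and 4 at 9 dpa. A promoter here is the window from 2 kb before to 2 kb after the transcription start. Over all 10067 genes, 82.8% had such a peak in uncut, 86.9% at 6 dpa and 85.4% at 9 dpa. The uncut library listed mcm7, pcna and pold1. The 6 dpa library listed all members but pold1, and the 9 dpa library listed mcm5, mcm7, cdc6 and pcna. Thus 6 members were new at 6 dpa, against 34.7% of the 1728 genes without a peak in uncut. A gene is counted only if some list names it. For mcm2, mcm3, ccne1 and e2f7 the 6 dpa promoter peak was the only peak found at or near the gene. Their count as new may have been fixed by that naming, so it cannot be weighed against the 34.7%. At 9 dpa 2 of the same 6 had a peak, against 27.0% of the 1728 genes and 53.3% of the 599 genes that were new at 6 dpa. The naming limits this count as well. The members were chosen with these lists already studied, so their counts describe the genes and are not independent evidence of a direction.

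**Figure D1:**
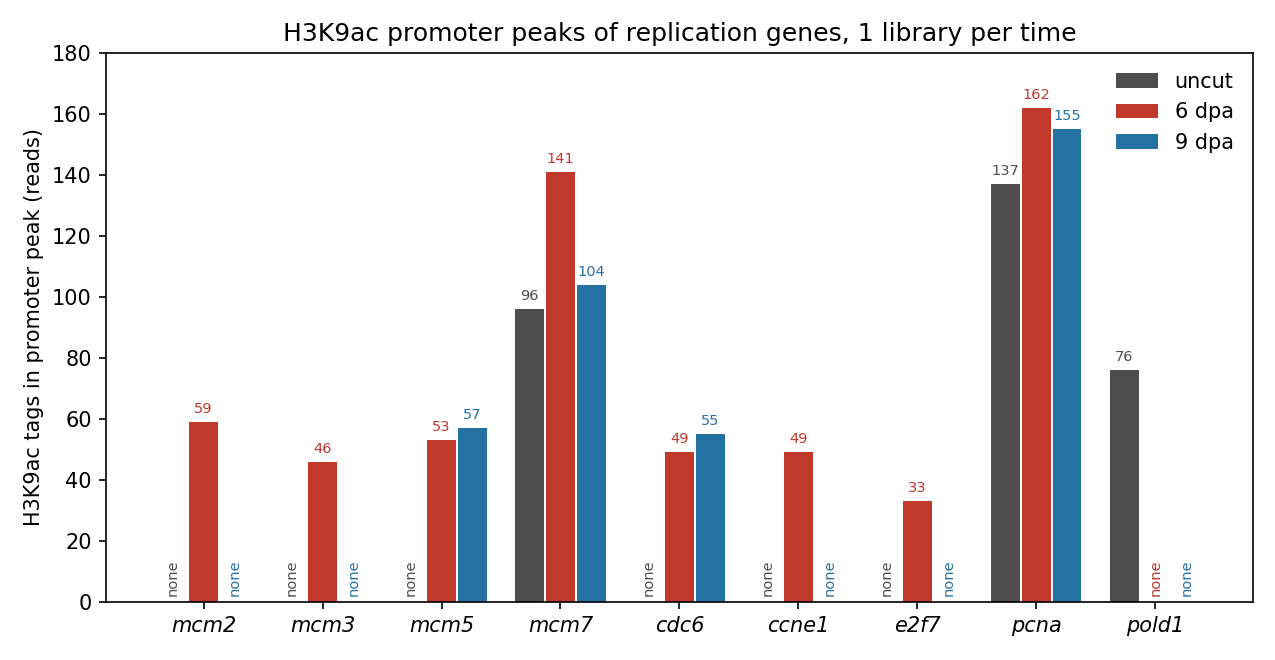
Tags in H3K9ac promoter peaks of the 9 genes (vertical axis, reads, not scaled for depth), with 1 bar for each library and "none" where no peak was called. Only mcm7 and pcna have bars at all times, and pold1 is the gene with a bar in uncut alone.

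Of the helicase subunit genes, mcm2 and mcm3 were marked at 6 dpa alone. The start of mcm2 lies on chromosome 22 at position 5624937 (minus strand, danRer10, as are all coordinates here). It had no peak in uncut or at 9 dpa, and at 6 dpa a peak of 59 tags over 1827 bp, or 32.3 tags per kb. That peak ran from position −500 to 1326 relative to the start, with its summit 170 bp downstream. The start of mcm3, at 34867400 on chromosome 20 (plus strand), was likewise without a peak in uncut and at 9 dpa. At 6 dpa mcm3 had 46 tags over 1220 bp (37.7 tags per kb), with the summit 93 bp downstream of the start. Their pattern, a peak at 6 dpa alone, was that of 280 of all genes (2.78%).

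The start of mcm5 is at 25868605 on chromosome 3 (plus strand). It had no peak in uncut, 53 tags over 1417 bp at 6 dpa (37.4 tags per kb) and 57 tags over 1229 bp at 9 dpa (46.4 tags per kb). The 9 dpa count stood at a log2 ratio of 0.00 to the 6 dpa count (95% counting interval −0.56 to 0.57). From here on, each log2 ratio has the median ratio of 8009 genes, those marked in all 3 H3K9ac libraries, taken off, and the intervals cover counting error only. The summit lay 380 bp downstream of the start at 6 dpa and 657 bp downstream at 9 dpa.

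The helicase subunit gene mcm7 starts at 150201 on chromosome 14 (plus strand) and carried H3K9ac in every library. It had 96 tags over 1871 bp in uncut, 141 over 2276 bp at 6 dpa and 104 over 1683 bp at 9 dpa. The count was highest at 6 dpa, with uncut and 9 dpa close to each other. The log2 ratio of 6 dpa to uncut was 0.44 (0.06 to 0.83), that of 9 dpa to uncut was −0.10 (−0.52 to 0.31), and that of 9 dpa to 6 dpa was −0.54 (−0.92 to −0.17). Scaled by background, the 3 ratios of mcm7 were 0.93, 0.08 and −0.86. On the scale of the median gene, a fall of at least 0.5 from 6 to 9 dpa was seen in 2.96% of the 8009 genes. Per kb of called width, the same 3 ratios were 0.20, 0.12 and −0.08, so the ratios of 6 dpa to the other times were smaller per kb, and the 9 dpa ratio to uncut changed sign within its counting error. The summit moved from 332 bp downstream of the start in uncut to 1100 bp at 6 dpa and 1109 bp at 9 dpa. In the NCBI table, which is of the build GRCz12tu and not danRer10, the mcm7 gene also holds the microRNA genes mir25, mir19d and mir93.

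Loading of the helicase needs cdc6, an ATPase, whose gene starts at 11809075 on chromosome 11 (minus strand). It had no promoter peak in uncut, 49 tags over 1186 bp at 6 dpa (41.3 tags per kb) and 55 over 1256 bp at 9 dpa (43.8 tags per kb). The later count did not differ from the earlier beyond counting error (log2 ratio 0.06, −0.52 to 0.65). Both peaks were among the weaker ones of their lists, since 13.7% of peaks had a lower score at 6 dpa and 7.49% at 9 dpa. The score is 10 times the negative log10 of the p that the authors' peak caller gave a peak, and its lowest listed value was 50. A separate site lay upstream of cdc6 and outside the window, at positions −5603 to −4076 in uncut, and the lists annotated no feature of cdc6 to it. It had 85 H3K9ac tags in uncut, 80 at 6 dpa and 85 at 9 dpa, and at 9 dpa an H3K9me3 peak of 50 tags.

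Cyclin E, the product of ccne1, activates the kinase cdk2 at the start of S phase. The gene starts at 45747703 on chromosome 7 (plus strand) and had a peak at 6 dpa alone, with 49 tags over 1318 bp (37.2 tags per kb). The gene zgc:162297 starts 321 bp away on the other strand and lies under the same peak, so the tags cannot be assigned to either gene. The start of e2f7, an atypical E2F factor that represses E2F targets, is at 2615234 on chromosome 4 (minus strand). Its peak, also at 6 dpa alone, had 33 tags over 847 bp (39.0 tags per kb), the fewest tags and the smallest width of the members' H3K9ac peaks. The e2f7 peak was also the only member peak in a promoter window whose summit lay upstream of the start, at position −278.

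The members that act at the fork, pcna and pold1, differed from each other. The clamp gene pcna, which starts at 40905492 on chromosome 10 (minus strand), had the most H3K9ac tags of the members in each library. Its counts were 137 over 1623 bp in uncut, 162 over 1645 bp at 6 dpa and 155 over 2153 bp at 9 dpa. The log2 ratios were 0.13 for 6 dpa to uncut (−0.21 to 0.47), −0.04 for 9 dpa to uncut (−0.38 to 0.30) and −0.17 for 9 dpa to 6 dpa (−0.50 to 0.16). All 3 intervals included 0, so on the scale of the median gene no difference in tags was detectable at this depth. Scaled by background instead, the ratios were 0.62, 0.14 and −0.48, and the shift moves the intervals of the ratios that involve 6 dpa past 0. Per kb, the ratio was 0.15 at 6 dpa and −0.37 at 9 dpa, where the called peak was the widest.

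The gene pold1, for the catalytic subunit of DNA polymerase delta, starts at 16569444 on chromosome 3 (minus strand) and was marked in uncut hearts alone. Uncut hearts had 76 tags over 1139 bp (66.7 tags per kb), and neither later library had a peak. Absence at 6 dpa was found for 2.27% of the 8339 genes with a peak in uncut, and 66 genes in all (0.656%) had a peak in uncut alone. The neighbouring gene gys1, for a glycogen synthase, starts 2982 bp away on the other strand and kept its own peak, with 116 tags in uncut, 179 at 6 dpa and 184 at 9 dpa.

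**Figure D2:**
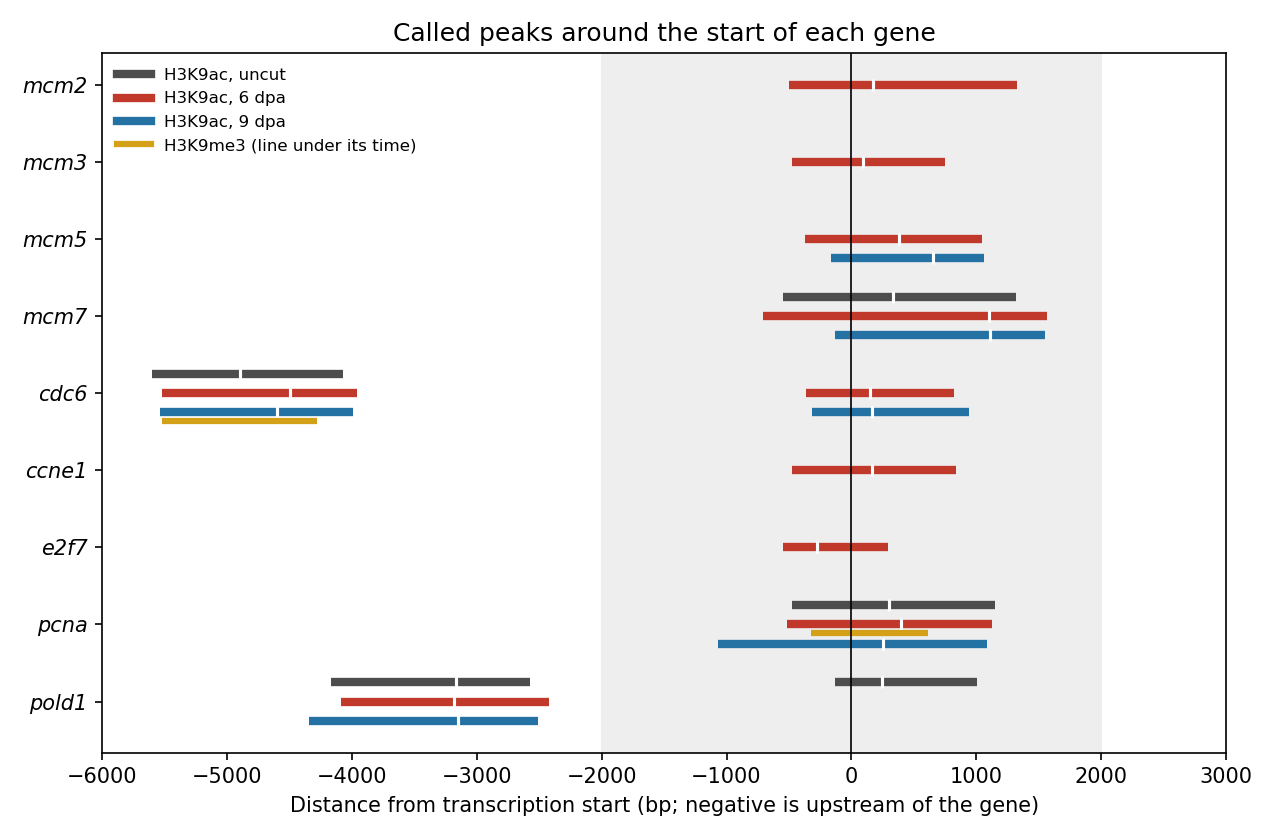
Called peaks around the start of each gene (horizontal axis, distance in bp along the gene's own strand), coloured by mark and time, with the promoter window shaded and summits as white ticks. Promoter peaks span the start in every case, and the separate upstream peaks of cdc6 and pold1 lie outside the window.

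The 15 H3K9ac promoter peaks were alike in position, which was set in part by taking peaks that overlap the window around the start. Each one spanned the transcription start, and no member had a further peak of either mark within its gene, over 124.556 kb of summed gene length. The authors' annotation placed every one of these peaks over the promoter, the 5′ UTR, an exon and an intron. Their widths ran from 847 to 2276 bp. The shares of all promoter peaks that span a start, and of all genes without a further peak, are not given here. Position is therefore not called particular to these genes.

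H3K9me3 promoter peaks were few at these genes, as over all genes: 0 of 9 members had one in uncut, 1 at 6 dpa and 0 at 9 dpa. The single H3K9me3 promoter peak was at pcna at 6 dpa, with 32 tags over 936 bp and a score of 54.85, close to the lowest listed. It lay inside the H3K9ac peak of the same time. At 6 dpa 4.60% of all genes had an H3K9me3 promoter peak, and 431 of those 463 genes also had H3K9ac. In uncut 198 of the 10067 genes had one, and at 9 dpa 184. Counts of 0 or 1 among 9 genes therefore do not set the members apart. The H3K9me3 background was 4.10 reads per kb in uncut, 10.83 at 6 dpa and 9.24 at 9 dpa, and the part of this difference in depth in the pcna peak was not tested.

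The 6 new promoters at 6 dpa had peaks of modest size. Their counts ran from 33 to 59 tags with a median of 49, and their scores from 64.77 to 97.22 with a median of 77.92. All 599 genes new at 6 dpa had a median of 45 tags and a median score of 74.83. Genes with a peak both in uncut and at 6 dpa had a median of 134 tags and a median score of 276. A score of at least 100 was reached by 133 of the 599 new genes and by none of the 6 members among them, of which mcm5 came closest at 97.22.

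**Figure D3:**
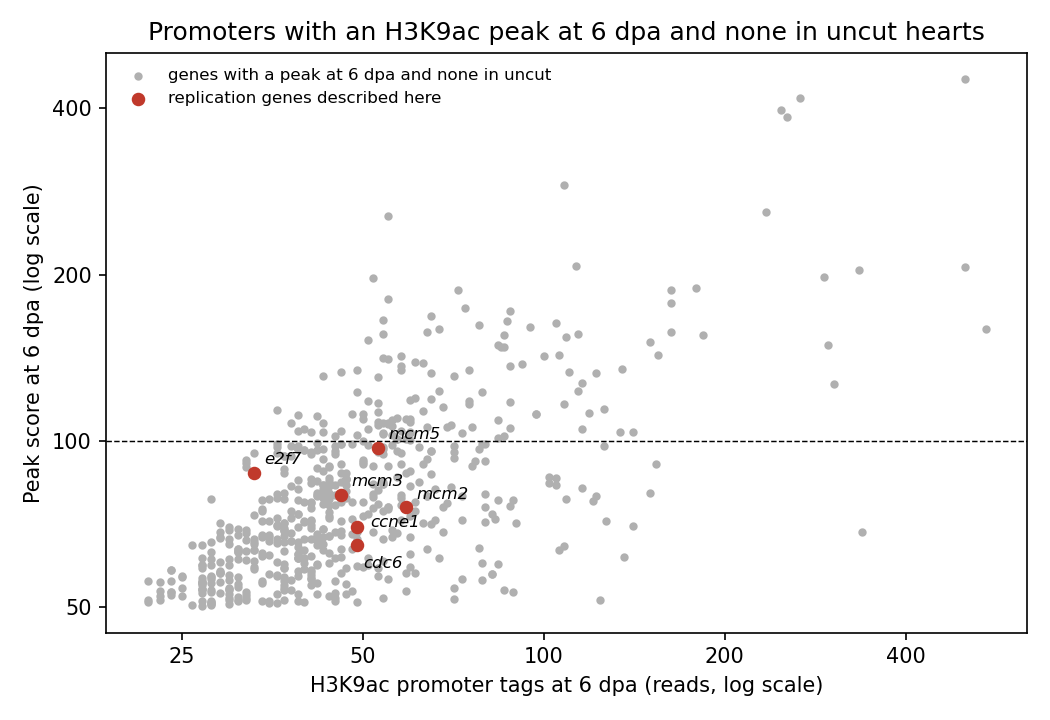
Promoters with an H3K9ac peak at 6 dpa and none in uncut, by tags (horizontal) and score (vertical), both on log axes, with 1 point per gene and the 6 replication genes in red. The red points lie among the bulk of the 599 genes and below the dashed line at a score of 100.

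An absent peak is not a count of 0, so the tags that a call would have needed were computed for the uncut library. At its background density and the width of the 6 dpa peak, a score of 50 needed 30 tags (e2f7) to 51 tags (mcm2). No promoter peak of a member was itself scored at a density as low as its library's background. At the density found around each gene at 6 dpa, restated for the uncut library, it needed 31 to 63. If uncut hearts had carried the 6 dpa level, scaled by the median gene, the expected counts were 30.5 to 54.5 tags. These passed the lower requirement in 6 of 6 genes and the higher in 0 of 6. Some margins were small: e2f7 had 30.5 against 30 and 31, and mcm5 had 49.0 against the higher 50. No counting error was applied to the expected counts, so passing or failing by so little decides nothing. Scaled by background instead, the expected counts were 42.9 to 76.7 tags and passed the higher requirement in 6 of 6. This pass was fixed in advance, since tags and local density were raised by the same factor and every peak had been called at 6 dpa. By the median gene, whether a promoter at the 6 dpa level would have been called in uncut hearts therefore depended on the local density. The background scale cannot decide this at the higher requirement.

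For cdc6 a call in uncut needed 38 tags at the library's background and 55 at the density restated from its own 6 dpa peak. The expected counts were 45.3 by the median gene and 63.7 by background. The second scale alone passed the higher requirement, a pass fixed in advance as above. The separate upstream site is no measure of the density at the cdc6 promoter, since its local density was the higher of the pair at 6 dpa (26.1 against 18.8 reads per kb) and at 9 dpa (32.8 against 22.2). At 9 dpa, the 4 genes with no peak (mcm2, mcm3, ccne1 and e2f7) had expected counts of 35.5 to 63.4 by the median gene. These passed the lower requirement in 4 of 4 and the higher in 2 of 4. Here too margins were small, with mcm2 at 63.4 against the higher 64 and mcm3 at 49.4 against 48. Scaled by background, the expected counts were 44.0 to 78.7 and passed the higher requirement in 4 of 4, again a pass fixed in advance. Of the 8 members with a peak at 6 dpa, 4 had none at 9 dpa, against 4.81% of the 8749 genes with one at 6 dpa. These 4 genes had no other peak found at or near them. Their naming may have fixed this count, so it cannot be weighed against the 4.81%. Of the 599 genes new at 6 dpa, 53.3% still had a peak at 9 dpa.

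By the median gene, the pold1 peak was larger relative to what a call needed than the 6 new peaks. Scaled by background, and at the density around each gene, it was not. Its 76 uncut tags corresponded to 82.3 tags at 6 dpa by the median gene and 58.4 by background. A call needed 31 tags at the library's background and 52 at the density around pold1 in uncut, restated for 6 dpa. At the density of the neighbouring gys1 peak at 6 dpa, 31.5 reads per kb, which need not be that at pold1, it needed 64 tags, which the first scale passed and the second did not. At 9 dpa the expected counts were 88.4 and 78.0, both above the 71 tags needed at the gys1 density there. No counting error was applied to these counts either, so a margin such as 78.0 against 71 decides nothing.

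**Figure D4:**
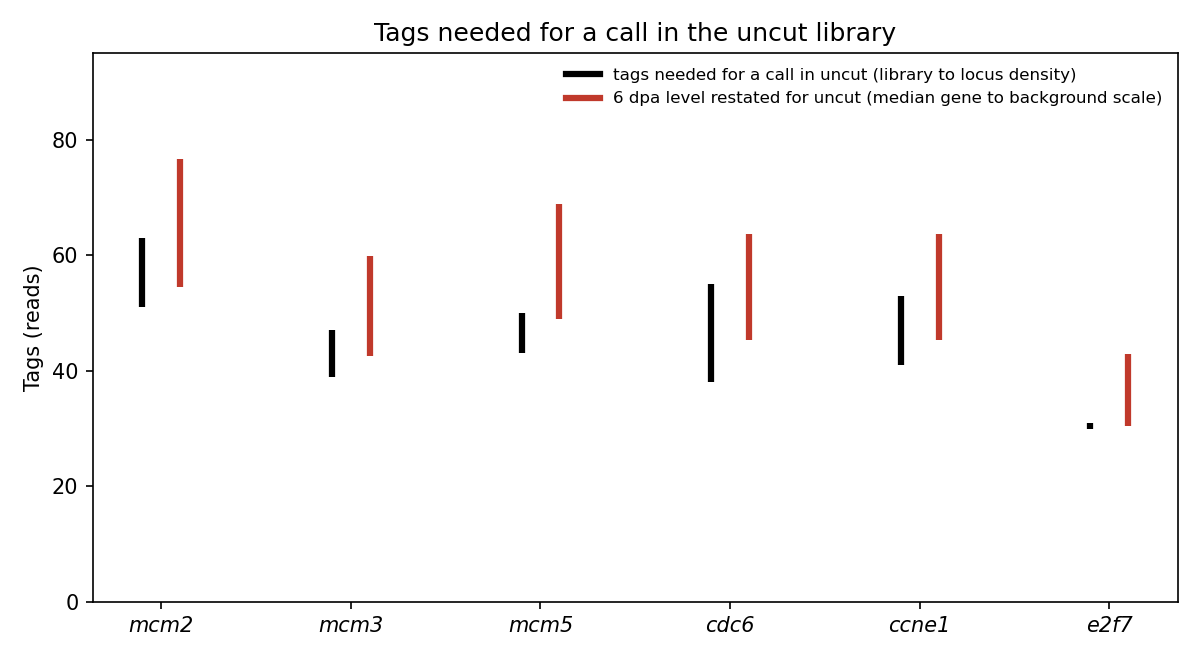
Tags needed for an H3K9ac call in the uncut library (black, from the library's background to the density around the gene) beside the 6 dpa level restated for that library (red, from median-gene to background scaling), for the 6 genes new at 6 dpa. The black and red ranges overlap for every gene.

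A wider list of 86 genes of replication and S phase entry, which includes the 9, was read the same way. The peak lists named 68 of them, and 18 (among them mcm4, cdt1 and e2f1) were named in none. Promoter H3K9ac was present at 60 in uncut, 63 at 6 dpa and 60 at 9 dpa, and 56 had it at all times. That is 82.4% of the 68, beside 79.6% of all 10067 genes. All 6 genes of the wider list that were new at 6 dpa are members, which were chosen with the lists known. None of the other 59 named genes was new. With all listed peaks, 57 of them had a peak in uncut, so mcm6 and wdhd1 alone could have been new. The list is not complete: mcm3l, ccna2 and chtf18 are not on it and were also new at 6 dpa. The absence of further new genes therefore holds for this list alone. Within the list, the split between members and other genes depended on the score: with peaks of at least 100 alone, 9 genes were new, none of them a member. Of all genes, 797 were new at that score. Peaks of that score marked 46 of the 68 listed genes in uncut, and 7087 of all 10067 genes. Of those 59, 57 had a peak in uncut, 55 at 6 dpa and 56 at 9 dpa.

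By role, 8 of 13 named licensing genes, of which 5 are members, were marked in uncut, 12 at 6 dpa and 10 at 9 dpa. Over all genes the shares were 82.8%, 86.9% and 85.4%. The licensing counts differed between times only by the members mcm2, mcm3, mcm5 and cdc6, which were chosen with the lists known. Of the helicase subunit genes named in the lists, mcm7 alone was marked in uncut. The promoter of mcm4, named in none, was not examined. The origin recognition genes orc1, orc3, orc4, orc5 and orc6, whose products bind origins, and gmnn, for the licensing inhibitor geminin, were marked at all times. Fork genes counted 24 of 25 in uncut, 22 at 6 dpa and 23 at 9 dpa. Cell cycle control genes counted 16, 18 and 16 of 18, and differed only by the members ccne1 and e2f7. The 8 origin firing genes counted 8, 7 and 7, and the 4 genes of nucleotide supply were marked throughout.

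A few other genes of the list were marked at some times alone. The firing factor gene mcm10 had 61 tags in uncut, none at 6 dpa and 46 at 9 dpa. The clamp loader gene rfc4 had 43 tags in uncut, none at 6 dpa and 52 at 9 dpa. The gene gins4, for a subunit of the active helicase, had 46 and 54 tags in uncut and at 6 dpa, and none at 9 dpa. The subunit gene mcm6 and the fork gene wdhd1 had no promoter peak. Their annotated peaks lay past the end of the gene, with 138, 114 and 151 tags for mcm6 in uncut, 6 dpa and 9 dpa, and 53, 54 and 61 for wdhd1.

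The 56 genes with a peak at all times had a median log2 ratio to uncut of −0.028 at 6 dpa, with 25 of 56 above 0, and of −0.0091 at 9 dpa, close to the median gene. Scaled by background, which lifts every gene by 0.49 at 6 dpa and 0.18 at 9 dpa, the medians were 0.47 and 0.17. A ratio of at least 0.5 at 6 dpa was reached by 3 of the 56 (5.57% of all 8009 genes), and a fall of at least 0.5 by 4 (9.56% of all genes). At 9 dpa the counts were 1 higher (4.66% of all genes) and 1 lower (4.38% of all genes).

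The highest at 6 dpa was tfdp1a, for a dimer partner of E2F factors, with 217 tags in uncut and 397 at 6 dpa (log2 ratio 0.76, 0.52 to 1.00). Its called width also grew, and per kb its ratio was −0.10. The ribonucleotide reductase gene rrm2 went from 29 to 49 tags (0.64, −0.05 to 1.36), an interval that includes 0. The cyclin-dependent kinase inhibitor gene cdkn1ba went from 270 to 432 tags (0.56, 0.34 to 0.79), and its ratio per kb was 0.27.

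The 3 lowest at 6 dpa were rfc5, rpa1 and rfc1, and the fourth gene past the threshold was cdc45, a firing gene, with 155 tags in uncut and 115 at 6 dpa (log2 ratio −0.54). Fork genes make up 22 of the 56, with a median of −0.060. The clamp loader gene rfc5 had 136 tags in uncut and 88 at 6 dpa (−0.74, −1.15 to −0.34). The single-strand binding protein gene rpa1 went from 150 to 104 tags (−0.64, −1.02 to −0.27), and the clamp loader gene rfc1 from 82 to 59 (−0.59, −1.10 to −0.09). Scaled by background, these ratios would each be 0.49 higher. The middle 90% of all genes ran from −0.69 to 0.52, so of the 3 highest and 3 lowest genes tfdp1a, rrm2, cdkn1ba and rfc5 lay outside it.

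**Figure D5:**
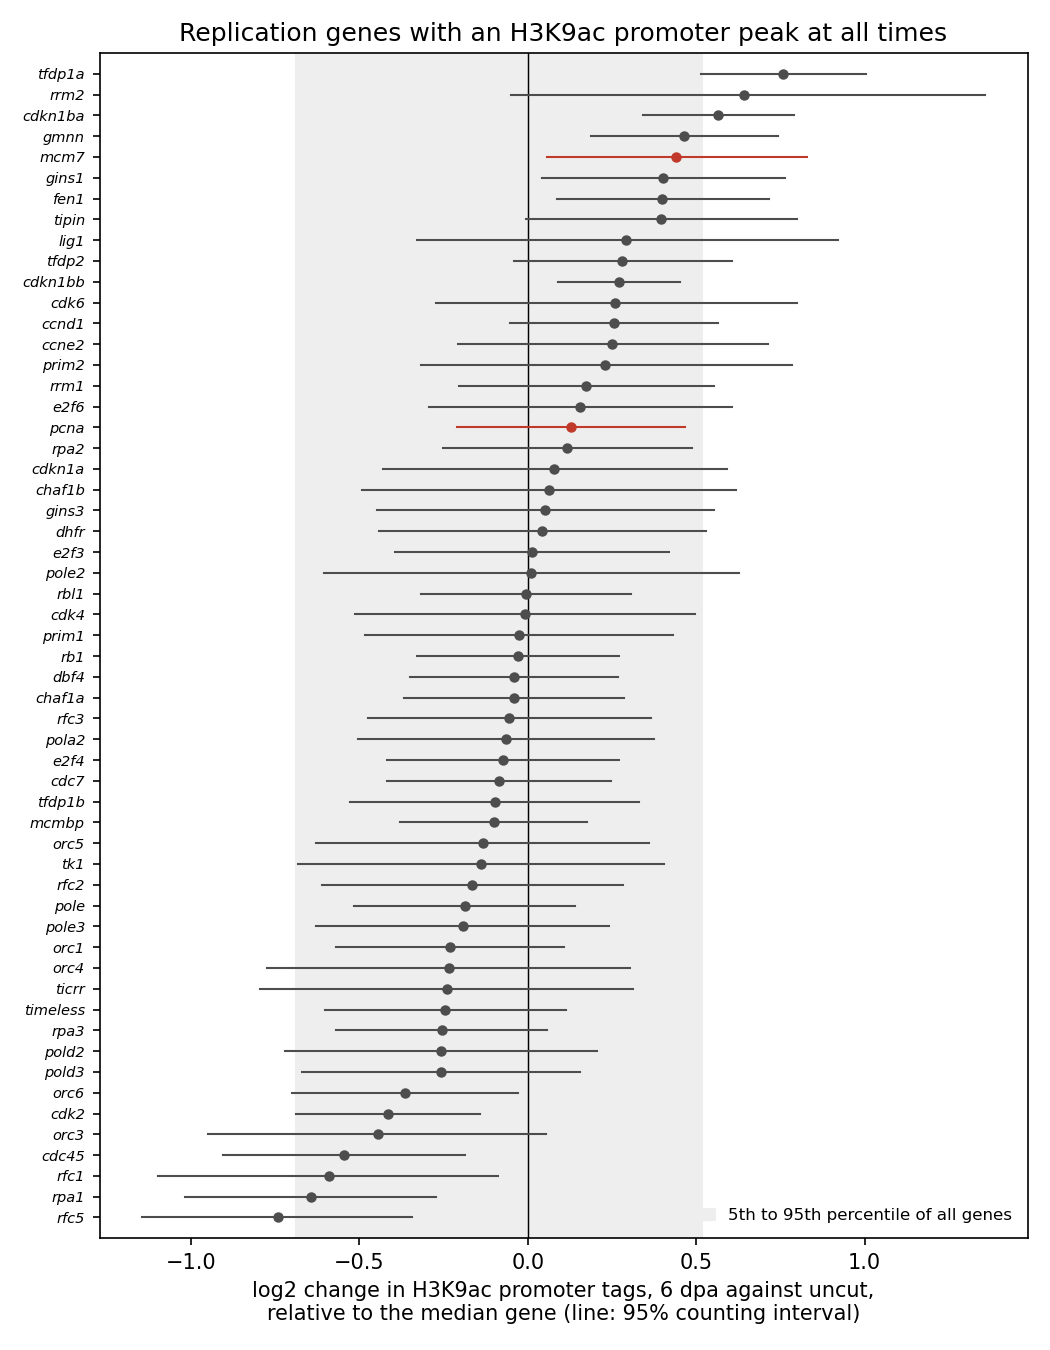
log2 ratio of H3K9ac promoter tags at 6 dpa to uncut, relative to the median gene (horizontal axis), for the 56 replication genes with a peak at all times, with 95% counting intervals as lines and the 5th to 95th percentile of all genes shaded. The points spread to both sides of 0, with mcm7 (0.44) and pcna (0.13) in red.

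Markers of heart cell types varied between the same libraries. Of 7 cardiomyocyte markers, 4 were named in the lists, and these had promoter H3K9ac peaks at 4, 3 and 4 genes in uncut, 6 dpa and 9 dpa, with summed counts of 425, 189 and 375 tags. The markers vmhc, actc1a and nppa were named in no list, so their promoters were not examined. Of 5 epicardial markers, 3 were named, with peaks at 0, 3 and 1 genes and sums of 0, 134 and 76 tags. Of 6 endothelial markers, 4 were named and 3 were marked in each library, with sums of 341, 156 and 263 tags. They were kdrl and kdr throughout, with fli1a in uncut and tek at 6 and 9 dpa. Erythrocyte markers had peaks at 4, 4 and 5 of 5 genes, with sums of 879, 1129 and 1669 tags. Of 6 leukocyte markers coro1a alone was named, and it had a peak of 39 tags at 6 dpa alone. A marker too is counted only if some list names it. Naming may therefore have fixed the pattern of epicardial and leukocyte markers with a peak at 6 dpa alone. The sums are not scaled for depth. The part of these marker differences in the replication gene peaks was not tested.

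The genes whose H3K9ac tags and widths over the 3 times lay nearest to the mean of mcm7 and pcna, by Euclidean distance on the log2 scale over 6 values, were siah1 (0.134), pdha1a (0.137) and glyr1 (0.141). They had 112, 150 and 134 tags (siah1), 115, 147 and 138 (pdha1a) and 117, 141 and 132 (glyr1) in uncut, 6 dpa and 9 dpa. The pattern of mcm5 and cdc6, a peak at 6 and 9 dpa and none in uncut, was shared by 319 of all genes (3.17%).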

How the data were processed

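Per the submitters' processing notes, the tools were DiffBind 1.16.3, MACS 1.4.2 and Bowtie2 2.2.5, with the build danRer10. Their roles, the control library, read totals and pooling are not given in the sources used here. The authors deposited 1 peak list per library with RefSeq transcripts annotated. A peak's values are, per the file headers, its count of tags, which was not normalized, a score (10 times the negative log10 of its p) and a fold enrichment, the authors' ratio to background. Peaks of all 6 libraries were used as listed.

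A gene was marked where a peak overlapped its promoter window by at least 1 bp. A gene named in no list was not counted. Tags and widths were summed over all peaks that overlapped the window, each peak counted whole. Each peak's local density was recovered from score and tags with the Poisson distribution, and its most frequent value per library was the background, a relative measure of depth. Tags needed for a call are the fewest that give p of 1e-05 at a density and width, a measure added after the lists were examined. Log2 ratios were scaled to the median gene, with a size threshold of 0.5 and exact 95% counting intervals. PCR duplicates are not known, so these intervals leave out all error but that of counting. No test was made, since a group is 1 library.

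Members, the wider list and the marker lists were chosen with earlier results of these data known. Named were all members, genes of the wider list marked at some times alone, the 3 highest and 3 lowest at 6 dpa, and the 3 genes nearest in profile. The genes mcm4, cdt1, e2f1, mcm6, wdhd1, cdc45, gmnn, mcm3l, ccna2, chtf18 and the orc genes were named after their values were seen. Symbols were matched by gene ID to the NCBI table of GRCz12tu, and no coordinate from it was set against a peak. Alternatives were the window, a score of at least 100, lists of equal length, the summit in the window, the strongest peak alone, tags per kb and scaling to background. Scripts were tested on simulated data. Python 3.11.15, pandas 2.3.3, numpy 2.4.6, scipy 1.17.1 and matplotlib 3.10.9 were used.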

Additional observations from a re-analysis of the deposited data

How the results depend on the processing

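Windows of 1 kb, the summit in the window and lists of equal length (16264 peaks) changed no count of members. With a score of at least 100, H3K9ac marked the same 2 members, mcm7 and pcna, in uncut, at 6 dpa and at 9 dpa. The uncut peak of pold1, with a score of 90.51, was then left out. At that score 0 members were new at 6 dpa, 0 absent at 6 dpa, 0 new at 9 dpa and 0 absent at 9 after 6 dpa. H3K9me3 was then at 0 members at 6 dpa. In the wider list 9 genes were then new at 6 dpa, 1 was new at 9 dpa and 11 of 53 were absent at 9 after 6 dpa. Over all genes, 797 were then new at 6 dpa and 662 at 9 dpa, and 433 of 7655 were absent at 9 after 6 dpa. In uncut, that score marked 46 genes of the wider list and 7087 of all genes. With a window of 5 kb, H3K9ac marked 4 members in uncut, 9 at 6 dpa and 5 at 9 dpa, and 5 were new at 6 dpa. In that window 0 members were absent at 6 dpa, because the gys1 peak then counted for pold1. In that window 1 member and 1 gene of the wider list were new at 9 dpa, because the upstream site then counted for cdc6, and H3K9me3 was at 1 member at 9 dpa. Scaled to background, the median log2 ratio of mcm7 and pcna at 6 dpa was 0.78 in place of 0.28 (mcm7 0.93, pcna 0.62), and that of the wider list was 0.47 at 6 dpa and 0.17 at 9 dpa. Per kb the wider list's median at 9 dpa was −0.074.

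No paired analysis was possible because every group is 1 library, so no test was made and no library was left out. The planned search for promoter motifs was not run, since no promoter sequence was used here. By the median gene, the 6 new promoters stood between the lower and the higher count needed for a call in the uncut library. By background they stood above both, but passing the higher count was fixed in advance on that scale. The part of depth in these absences was not tested.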
